A study of Mus musculus with 8 samples.

Results

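The antioxidant and glutathione genes are 47 genes picked by gene symbol, and all 47 were found, each under 1 Ensembl gene, among the 56953 genes of the count table. They were sorted by role into 8 groups, which hold superoxide dismutases and catalase, glutathione peroxidases, peroxiredoxins with the thioredoxin system, glutaredoxins, enzymes of glutathione synthesis and recycling, glutathione transferases, quinone reductases with a further selenoprotein, and regulators. Their transcripts were measured by RNA-seq in brown adipose tissue (BAT) of wild-type (WT) C57BL/6J mice, with 1 library per mouse. The 4 control (CTR) mice received PBS. The 4 mice with cancer-associated cachexia (CAC) were injected subcutaneously with 3000000 LLC (Lewis lung carcinoma) cells and monitored over 21 days, and injected mice that grew no tumour were not included in the study. Both groups were 8 to 10 weeks old at the start, were kept at 21 °C and are described as male or female, and the labels do not give the sex behind each library. The comparison of CAC with CTR asks how transcripts for removal of reactive oxygen species stand in cachectic BAT, and in particular whether targets of the transcription factor NRF2 and antioxidant genes of the mitochondrion take different courses.

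Superoxide formed by the respiratory chain is turned into hydrogen peroxide by superoxide dismutases, and the peroxide is removed by catalase, by glutathione peroxidases and by peroxiredoxins. Glutathione and thioredoxin supply the electrons for the peroxidases and are themselves kept reduced by NADPH, while glutathione transferases couple glutathione to electrophiles and lipid oxidation products. NRF2, encoded by Nfe2l2, is held at low levels by KEAP1 and, when released, binds antioxidant response elements in the promoters of many of these genes. Brown adipocytes are dense in mitochondria, which hold their own manganese superoxide dismutase, peroxiredoxins and thioredoxin.

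Short sequences are shown for features that some of these genes share. The antioxidant response element was searched as TGACNNNGC on both strands of promoter windows reaching from 250 bases before to 50 bases after the transcription start (RefSeq, GRCm38.p6). At least 1 window was found for 41 of the 47 genes, and 9 of them (22.0%) held the motif, against 3781 of 27025 genes (14%) with such a window. Of the 14 NRF2 targets 11 had a window, of which 5 (45.5%) held it, and of the 8 mitochondrial antioxidant genes, all with a window, 0 held it. These 11 targets are not the same set as the 11 that passed the count filter below. The NRF2 targets were listed as targets of the factor that binds this element, so their share is not independent of that choice. The 8 mitochondrial genes are few to set beside a share of 14%. A match is a description of letters only. The matches of the 5 NRF2 targets and of Nfe2l2 itself follow with 10 bases on either side, 5′ to 3′ on the strand that carries the motif, with the motif in capitals.
Prdx1, chr4:116685456-116685484: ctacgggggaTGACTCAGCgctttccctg
Srxn1, chr2:152105542-152105570: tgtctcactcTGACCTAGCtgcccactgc
Txnrd1, chr10:82859104-82859132: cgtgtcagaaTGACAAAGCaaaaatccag
Gclm, chr3:122245413-122245441: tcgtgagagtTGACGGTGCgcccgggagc
Gsta3, chr1:21240454-21240482: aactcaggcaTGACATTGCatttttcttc
Nfe2l2, chr2:75704885-75704913: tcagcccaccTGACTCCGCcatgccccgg

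The Srxn1 match lies 28 bases past the start site, and those of the other 4 targets lie 92 to 134 bases before it. Gstm5, Mgst1 and Sod1 held the motif too.

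A further feature shared by 6 of the genes is selenocysteine, an amino acid that carries selenium and is encoded by a TGA codon that elsewhere ends translation. The codon sits in the active site of Gpx1, Gpx3 and Gpx4 and near the end of the protein in the thioredoxin reductases Txnrd1 and Txnrd2, and it is also found in Selenow. The windows below give the codon in capitals with 12 bases on either side, 5′ to 3′ on the coding strand (GENCODE M21, GRCm38), and are shown because the gene with the clearest difference, Gpx3, belongs to this set.
Gpx3, chr11:54907244-54907270, exon 2 of 5: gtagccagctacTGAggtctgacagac
Gpx1, chr9:108339439-108339465, exon 1 of 2: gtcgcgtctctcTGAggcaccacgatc
Gpx4, chr10:80054725-80054751, exon 3 of 7: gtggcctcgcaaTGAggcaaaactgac
Txnrd1, chr10:82896025-82896051, exon 15 of 15: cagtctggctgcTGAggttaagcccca
Txnrd2, chr16:18477760-18477786, exon 17 of 17: gtgactggttgcTGAggctaagtcacc

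The libraries held 1823167 to 4827956 counts, of which the 47 genes took 0.849% to 0.894% in CTR and 0.904% to 0.956% in CAC. Levels are given as CPM, that is counts relative to a TMM-scaled library, which are not corrected for gene length and are compared only within a gene. A count of 0 allows for up to 3 counts, which at this depth corresponded to 0.661 to 1.62 CPM, and this limit covers counting error only. Markers of the tissue were present, with Ucp1, the uncoupling protein of brown adipocytes, between 3590 and 4932 CPM in every library, and the summed level of 8 brown adipocyte markers was 13088 to 15125 CPM in CTR and 12748 to 16173 CPM in CAC. Of these 8 markers 5 were higher and 3 lower by sign and 0 passed the test, and the groups did not overlap for Cox8b, Cox7a1 and Plin1, all lower (log2 fold changes -0.22, -0.22 and -0.27, edgeR adjusted p of 0.286, 0.292 and 0.192). Markers of other cells stood as follows. The summed erythrocyte markers were 6180 to 19269 CPM in CTR and 14637 to 44327 CPM in CAC, and 6 of 6 tested were higher, 1 of them with an adjusted p under 0.05. Skeletal muscle markers summed to 903 to 2313 CPM in CTR and 1980 to 3835 CPM in CAC, with 8 of 8 higher and 0 past the test. Macrophage markers summed to 196 to 216 CPM against 272 to 370 CPM, with 6 of 6 tested higher and 2 past the test, and neutrophil markers to 6.39 to 6.64 CPM against 166 to 434 CPM, with 3 of 3 tested past the test. Most of the neutrophil sum came from S100a8 and S100a9, which other cell types can express too, and the third tested marker, Retnlg, averaged 1.02 and 10.7 CPM. Of the markers with too few counts for the test, Lcn2, Ngp and Cxcr2 were higher in CAC without overlap. They averaged 0.09, 0.16 and 0 CPM in CTR and 3.27, 2.21 and 1.87 CPM in CAC, while Ltf and Camp overlapped. Fibroblast markers summed to 521 to 698 CPM and 437 to 661 CPM, with 3 of 8 higher and 0 past the test, and endothelial markers to 1274 to 1301 CPM and 1048 to 1528 CPM, with 2 of 7 tested higher and 1 past the test. None of these markers was at 0 in all 8 libraries.

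Of the 47 genes, 43 passed edgeR's filter for low counts, and 1 of these, Gpx3, had an adjusted p under 0.05 by the quasi-likelihood method of edgeR, adjusted by Benjamini-Hochberg over all 9876 genes tested. That share (2.33%) stands beside 0.932% of all tested genes, or 92 genes. At an unadjusted p under 0.05, 2 of the 43 genes were higher in CAC (Gpx3 and Txn2; 4.65%, against 7.01% of all genes) and 3 were lower (Sod2, Txn1 and Gstt1; 6.98%, against 5.93% of all genes). The 4 CTR and 4 CAC libraries did not overlap for 6 of the 43 genes (14%, against 7.04% of all genes), which were Gpx3 and Ggt5 on the higher side and Sod2, Prdx3, Gstt1 and Gstm5 on the lower side. By sign, 17 genes were higher and 26 lower (60.5%, against 50.0% of all genes), and the median log2 fold change of the 43 was -0.05, against 0.00 for all genes. For 40 of the 43 genes the log2 fold change lay within 0.5 of 0. In 13 genes the sign turned in at least 1 of the 18 alternative analyses (Sod3, Cat, Gpx4, Gpx7, Prdx4, Srxn1, Glrx2, Gclm, Gss, Gsta3, Gstm2, Gsto1 and Gstz1), so for these only levels are given.

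**Figure D1:**
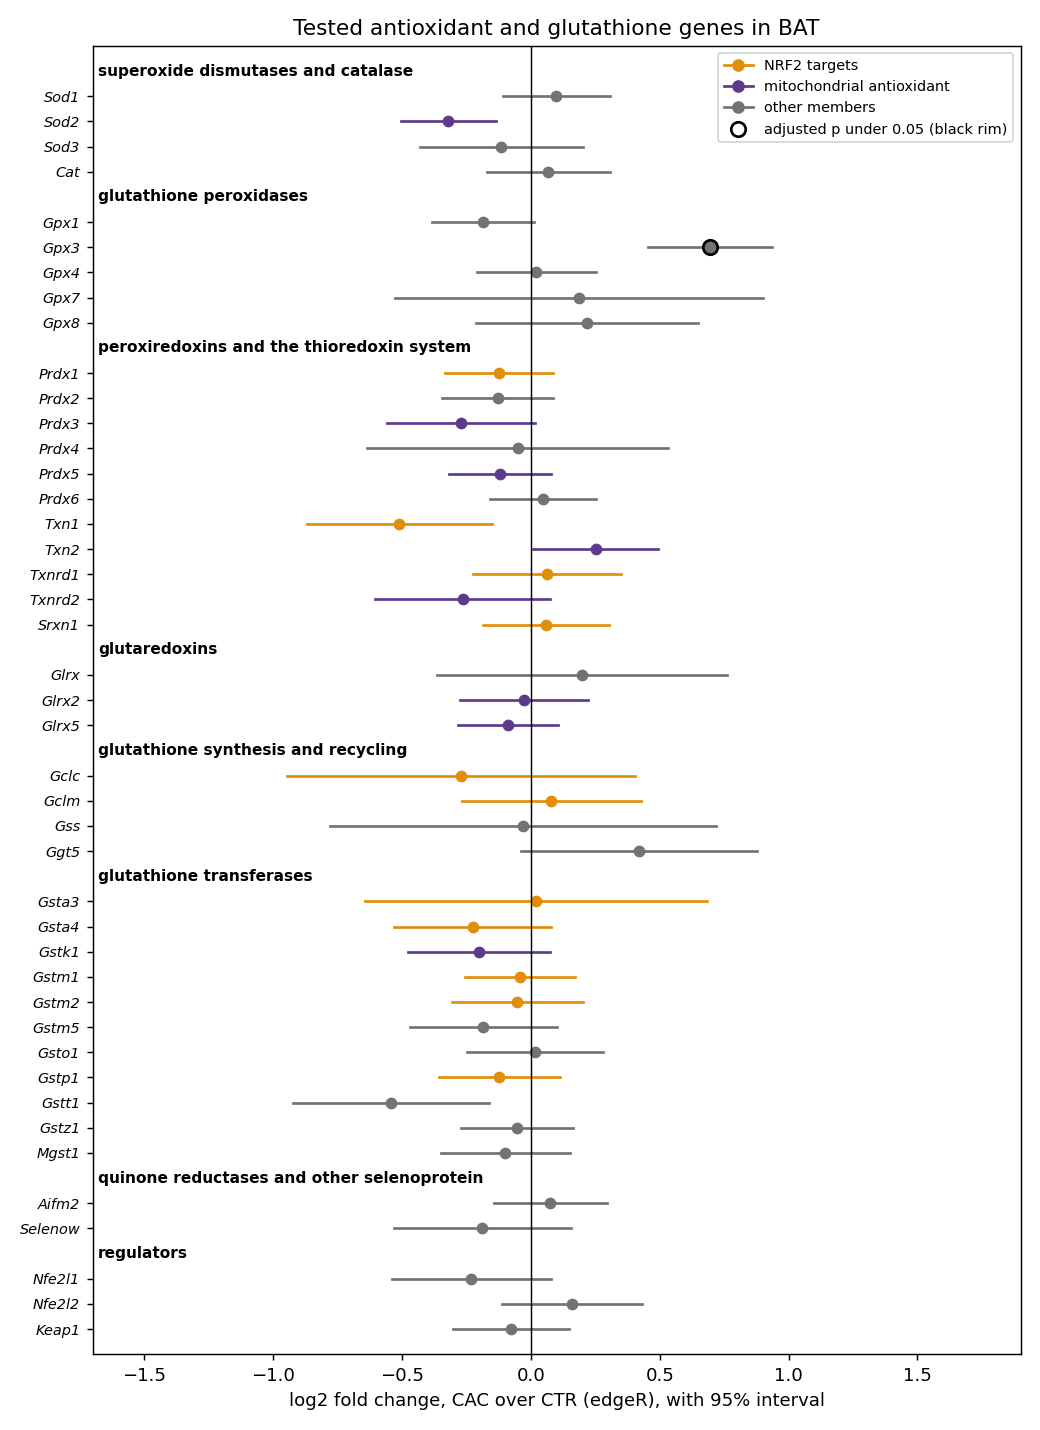
Log2 fold change of CAC over CTR with its 95% interval for the 43 tested genes, grouped by role, with NRF2 targets in orange, mitochondrial antioxidant genes in purple and the other genes in grey. Gpx3, at 0.70, is the gene with an adjusted p under 0.05 (black rim), and most intervals include 0.

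Glutathione peroxidases such as Gpx1, Gpx3 and Gpx4 reduce hydrogen peroxide or lipid peroxides with glutathione, and the secreted Gpx3 rose in CAC. Gpx3 (ENSMUSG00000018339.13, chr11:54902453-54910377, plus strand, GRCm38) encodes the peroxidase of plasma and extracellular fluid. Its level in CTR replicates 1 to 4 was 1223, 929, 1130 and 1453 CPM, and in CAC replicates 1 to 4 it was 1717, 2120, 1807 and 2024 CPM. No CTR library reached the lowest of the CAC libraries. The means were 1184 ± 217 CPM for CTR and 1917 ± 187 CPM for CAC (n = 4 each, SD). This gave a log2 fold change of 0.70 with a standard error of 0.12 and a 95% interval of 0.45 to 0.94, which is 1.62-fold (edgeR adjusted p = 0.00343). The summed level of all 47 genes was 8087 to 9517 CPM in CTR and 8982 to 10014 CPM in CAC. Without Gpx3 it was 7158 to 8065 CPM and 7150 to 8297 CPM, nearly the same range in both groups. Sod1 alone gave 2350 to 2867 CPM of that in CTR and 2490 to 3240 CPM in CAC. The sum is thus set largely by genes of high level and does not show that the other genes were level. The summed macrophage and neutrophil markers were likewise higher in every CAC library than in every CTR library. The erythrocyte and muscle markers were higher by sign in all those tested, while their sums overlapped between the groups. The part of these markers in the Gpx3 result was not tested. In bulk tissue a change in the number of cells of a type and a change in RNA per cell cannot be told apart.

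The other 4 glutathione peroxidases did not pass the test. Gpx1, the peroxidase of the cytosol and mitochondria, ranged from 394 to 446 CPM in CTR and from 337 to 420 CPM in CAC, with 3 CAC libraries below every CTR library (log2 fold change -0.19, 95% interval -0.38 to 0.01). Gpx8, which resides in the endoplasmic reticulum, ranged from 46.9 to 88.9 CPM in CTR and from 68.1 to 107 CPM in CAC, with wide overlap. Gpx4, which reduces lipid hydroperoxides within membranes and restrains ferroptosis, averaged 349 ± 49.3 CPM in CTR and 354 ± 40.9 CPM in CAC. Gpx7, also of the endoplasmic reticulum, averaged 3.32 ± 0.776 and 3.67 ± 1.47 CPM. Thus 1 of the 5 peroxidase genes passed the test.

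Among the superoxide dismutases, the mitochondrial enzyme was the one whose groups separated. Sod2 (ENSMUSG00000006818.6, chr17:13006846-13040063, plus strand, GRCm38), the manganese enzyme of the mitochondrial matrix, was measured at 398, 381, 360 and 388 CPM in CTR and at 295, 305, 312 and 311 CPM in CAC. Every CAC library lay below every CTR library, and the spread within the groups was small (382 ± 16.2 and 306 ± 7.83 CPM, SD, n = 4 each). The log2 fold change was -0.32 (standard error 0.09, 95% interval -0.50 to -0.14), and the gene did not pass the test over all genes (edgeR adjusted p = 0.0881). Its adjusted p was 0.0501 to 0.253 over the 18 alternatives.

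Sod1, the copper and zinc enzyme of the cytosol, averaged 2581 ± 236 CPM in CTR and 2764 ± 330 CPM in CAC. Sod3, the enzyme secreted to the extracellular matrix, ranged from 97.5 to 169 CPM in CTR and from 103 to 134 CPM in CAC. Cat, the catalase of peroxisomes, ranged from 253 to 312 CPM in CTR and from 239 to 361 CPM in CAC. In these 3 genes the CAC range overlapped that of CTR.

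**Figure D2:**
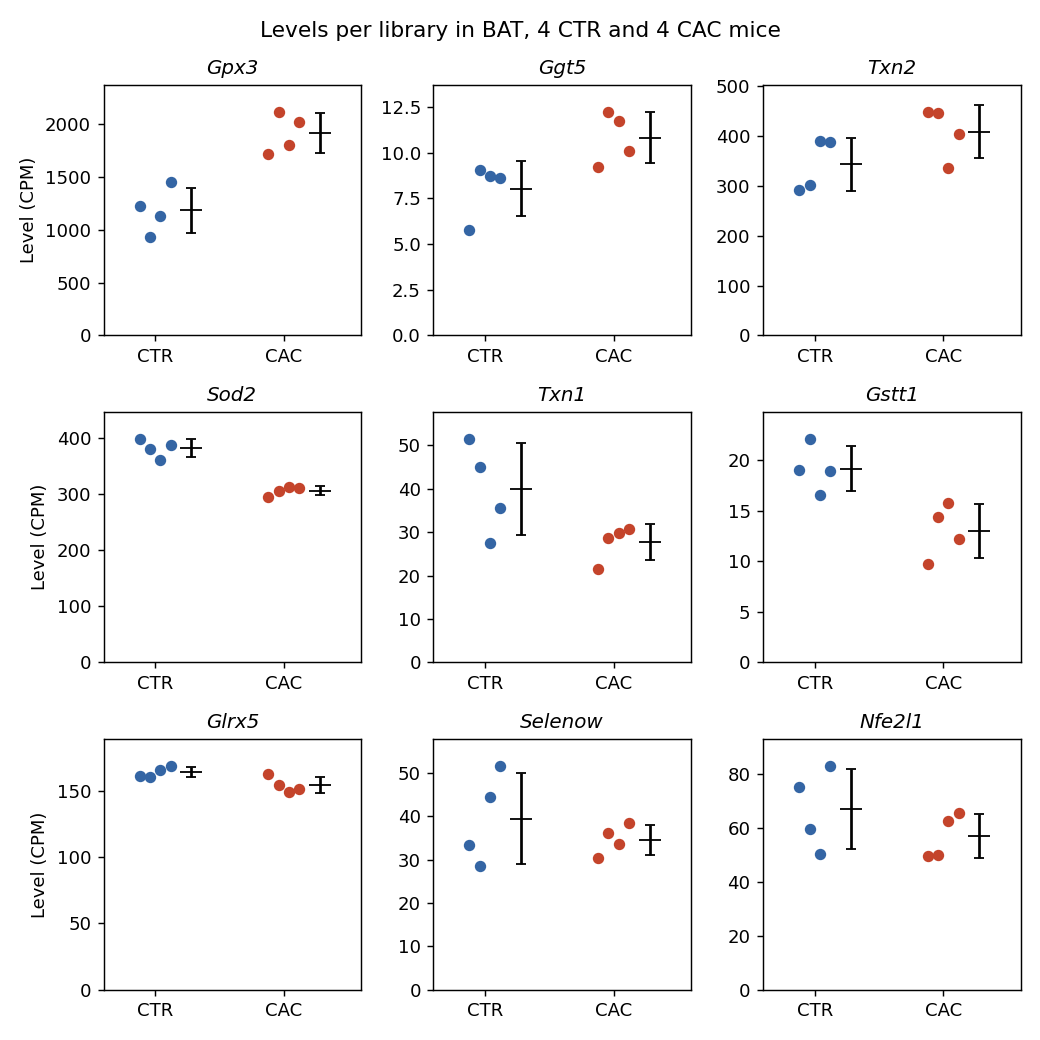
Level in CPM of 9 genes in each library (points in the order of replicates 1 to 4) with the mean and SD of each group to the right, on axes that start at 0. The groups do not overlap for Gpx3, Ggt5, Sod2 and Gstt1, and they overlap for Txn2, Txn1, Glrx5, Selenow and Nfe2l1.

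The peroxiredoxins reduce peroxides through a reactive cysteine that thioredoxin restores, and 0 of the 11 genes of this system passed the test. The cytosolic and the mitochondrial thioredoxin stood on opposite sides of 0. Txn1 (ENSMUSG00000028367.6, chr4:57943373-57956411, minus strand, GRCm38), the thioredoxin of cytosol and nucleus, was at 51.46, 45.01, 27.39 and 35.50 CPM in CTR and at 21.62, 28.72, 29.89 and 30.68 CPM in CAC. CTR replicate 3 lay among the CAC libraries, and 1 CAC library lay below all of CTR. The log2 fold change was -0.51 (standard error 0.17, 95% interval -0.87 to -0.15, edgeR adjusted p = 0.182). The call turned on the settings, since the edgeR adjusted p was 0.0255 with no filter on low counts and 0.0493 without CTR replicate 3, within a range of 0.0255 to 0.451 over the 18 alternatives.

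Txn2 (ENSMUSG00000005354.17, chr15:77915047-77929006, minus strand, GRCm38), the thioredoxin of the mitochondrial matrix, was at 293, 303, 390 and 388 CPM in CTR and at 449, 446, 336 and 405 CPM in CAC. Here 3 CAC libraries lay above every CTR library and CAC replicate 3 lay within the CTR range. The log2 fold change was 0.25 (standard error 0.12, 95% interval 0.01 to 0.49, edgeR adjusted p = 0.361). The difference between the responses of Txn1 and Txn2 was not tested.

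Prdx3, the peroxiredoxin found only in mitochondria, ranged from 34.6 to 40.7 CPM in CTR and from 23.2 to 34.5 CPM in CAC. Its log2 fold change was -0.16 without CAC replicate 1. Its groups did not overlap, by a gap that was narrow beside the spread in CAC (means 38.0 ± 2.51 and 31.0 ± 5.29 CPM, log2 fold change -0.27, 95% interval -0.56 to 0.01, edgeR adjusted p = 0.416). Txnrd2, the mitochondrial thioredoxin reductase, ranged from 27.3 to 34.9 CPM in CTR and from 18.8 to 34.0 CPM in CAC, with 3 CAC libraries below all of CTR. Prdx5, which is found in mitochondria, peroxisomes and cytosol, ranged from 408 to 447 CPM and from 342 to 433 CPM. The cytosolic Prdx1 and Prdx2 averaged 342 ± 17.4 and 181 ± 12.6 CPM in CTR and 313 ± 38.0 and 166 ± 18.3 CPM in CAC.

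The remaining members of the thioredoxin system were close to level between the groups. Prdx6, which also acts on oxidised phospholipids, averaged 234 ± 13.9 CPM in CTR and 241 ± 23.3 CPM in CAC. Txnrd1, the cytosolic reductase, averaged 26.5 ± 2.51 and 27.7 ± 1.81 CPM, and Srxn1, the sulfiredoxin that repairs overoxidised peroxiredoxins, 68.2 ± 5.57 and 71.3 ± 8.56 CPM. Prdx4, of the endoplasmic reticulum, was scarce, at 3.74 to 8.82 CPM in CTR and 4.69 to 8.11 CPM in CAC. Exons of 9 of the 47 genes (Prdx2, Prdx5, Txnrd2, Gclm, Gss, Gstm5, Gstz1, Aifm2 and Keap1) overlap those of other annotated genes, so reads may be shared there, and the strand setting of the counting is not given in the sources used here.

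Glutaredoxins use glutathione to reduce disulfides or to carry iron-sulfur clusters, and 0 of 3 passed the test. Glrx5 (ENSMUSG00000021102.5, chr12:105032688-105042906, plus strand, GRCm38), which serves iron-sulfur cluster assembly in mitochondria, was at 161, 160, 166 and 168 CPM in CTR and at 162, 154, 149 and 151 CPM in CAC. The values were tight in both groups, and 3 CAC libraries lay below all of CTR while CAC replicate 1 lay among them. The log2 fold change was -0.09 (standard error 0.09, edgeR adjusted p = 0.747). Glrx2, the other mitochondrial glutaredoxin, averaged 74.7 ± 10.4 CPM in CTR and 73.9 ± 4.99 CPM in CAC. The cytosolic Glrx ranged from 5.40 to 11.5 CPM and from 6.62 to 13.3 CPM.

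Glutathione is built by glutamate-cysteine ligase (catalytic subunit Gclc, modifier subunit Gclm) and glutathione synthetase (Gss), recycled by glutathione reductase (Gsr), broken down outside the cell by gamma-glutamyl transferases, and limited by the cystine brought in by Slc7a11. None of the 4 tested genes of this group passed the test. Ggt5 (ENSMUSG00000006344.18, chr10:75589340-75617200, plus strand, GRCm38), a gamma-glutamyl transferase of the cell surface that also converts leukotriene C4, was at 5.76, 9.06, 8.71 and 8.60 CPM in CTR and at 9.19, 12.2, 11.7 and 10.1 CPM in CAC. The groups did not overlap, although the highest CTR and the lowest CAC library were close. The log2 fold change was 0.42 (standard error 0.22, 95% interval -0.04 to 0.88, edgeR adjusted p = 0.435).

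Gclc ranged from 3.46 to 6.84 CPM in CTR and from 2.13 to 4.69 CPM in CAC. Gclm ranged from 18.1 to 25.2 CPM and from 19.5 to 28.7 CPM, and Gss from 8.38 to 25.2 CPM and from 11.9 to 23.4 CPM. The CAC libraries thus overlapped those of CTR for all 3 genes of synthesis. Gsr was not tested, with 6, 12, 6 and 15 counts in CTR and 8, 3, 10 and 6 counts in CAC, or 2.89 and 2.70 CPM over each group and a ratio of 0.932 (95% interval of 0.549 to 1.56, exact, for counting error only). Slc7a11 was not detected beyond 1 count in CTR replicate 1, and its 0 counts in CAC allow a level of up to 0.300 CPM over the group.

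The glutathione transferases included 11 tested genes, of which 9 were lower and 2 higher by sign and 0 passed the test. Their median log2 fold change was -0.10 (range over the alternatives -0.16 to -0.09, with 9 to 12 genes lower and 0 to 3 higher). Gstt1 (ENSMUSG00000001663.11, chr10:75783813-75798584, minus strand, GRCm38), a transferase of the theta class, was at 19.1, 22.1, 16.6 and 19.0 CPM in CTR and at 9.73, 14.4, 15.8 and 12.2 CPM in CAC. Every CAC library lay below every CTR library. The log2 fold change was -0.54 (standard error 0.18, 95% interval -0.92 to -0.16), with an edgeR adjusted p of 0.178, which did not pass.

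Gstm5, of the mu class, was the other transferase whose groups did not overlap, at 25.9 to 29.3 CPM in CTR and 22.3 to 25.5 CPM in CAC (log2 fold change -0.18, 95% interval -0.47 to 0.10), and its exons overlap those of 1 other gene. Its relatives Gstm1 and Gstm2 averaged 173 ± 18.0 and 71.6 ± 8.27 CPM in CTR and 168 ± 11.1 and 68.6 ± 8.19 CPM in CAC. Gsta4, which takes up the lipid aldehyde hydroxynonenal, ranged from 35.6 to 44.4 CPM and from 27.0 to 41.6 CPM. Gstk1, of mitochondria and peroxisomes, ranged from 44.7 to 52.3 CPM and from 34.0 to 51.4 CPM. In Gsta4 and Gstk1 alike, 2 CAC libraries lay below all of CTR.

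Gsto1 averaged 50.6 ± 1.49 and 51.1 ± 8.98 CPM in CTR and CAC, Gstz1, an enzyme of tyrosine breakdown, 224 ± 19.0 and 217 ± 26.0 CPM, and the membrane-bound Mgst1 83.7 ± 9.35 and 78.0 ± 9.92 CPM. Gsta3 was scarce and uneven, at 4.41 to 9.36 CPM in CTR and 2.66 to 11.2 CPM in CAC. Gstp1, at 75.6 to 101 CPM in CTR and 76.2 to 84.3 CPM in CAC, held fractional counts in 7 libraries and nearly the level of its close copy Gstp2 in each (69.0 to 97.9 CPM in CTR), so the split of reads between these copies is uncertain. Mgst3 was not tested, with 14, 14, 7 and 28 counts in CTR and 2, 2, 9 and 9 counts in CAC. Over each group this was 4.674 and 2.197 CPM, a ratio of 0.470 (95% interval of 0.276 to 0.775, exact, for counting error only), and 3 CAC libraries lay below all of CTR. With no filter on low counts the edgeR adjusted p of Mgst3 was 0.205, and it was 0.181 to 0.406 over the 6 alternatives in which the gene was tested.

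In the group of quinone reductases, Nqo1, a classical NRF2 target, was almost without reads, with 1, 1, 1 and 2 counts in CTR and 2, 2, 2 and 4 counts in CAC. Over each group this was 0.371 and 0.999 CPM, a ratio of 2.69 with a 95% interval of 0.839 to 10.0 (exact, for counting error only). Per library the level was 0.266 to 0.441 CPM in CTR and 0.586 to 1.39 CPM in CAC, without overlap, but these values rest on 1 to 4 reads each, and the counting interval includes a ratio of 1. Aifm2, which regenerates coenzyme Q at membranes and lipid droplets and protects from ferroptosis, averaged 186 ± 6.45 CPM in CTR and 196 ± 27.7 CPM in CAC. Selenow (ENSMUSG00000041571.11, chr7:15917208-15922402, minus strand, GRCm38), a small selenoprotein abundant in muscle, was at 33.5, 28.5, 44.4 and 51.6 CPM in CTR and at 30.3, 36.2, 33.7 and 38.4 CPM in CAC. All 4 CAC libraries lay within the CTR range (log2 fold change -0.19, standard error 0.16, edgeR adjusted p = 0.684). For Selenow the log2 fold change was 0.00 without CTR replicate 4 and -0.33 without CTR replicate 2. Of the 6 selenoprotein genes, 3 were higher and 3 lower, and the median of their log2 fold changes was -0.08 and lay between -0.13 and 0.02 over the alternatives.

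None of the 3 regulators passed the test. Nfe2l1 (ENSMUSG00000038615.18, chr11:96817414-96829968, minus strand, GRCm38), the relative of NRF2 that controls proteasome genes and is needed in brown fat thermogenesis, was at 75.2, 59.7, 50.2 and 82.9 CPM in CTR and at 49.7, 50.0, 62.4 and 65.5 CPM in CAC. The CTR libraries spread over most of the range and 2 CAC libraries lay just below them (log2 fold change -0.23, standard error 0.15, edgeR adjusted p = 0.547), and without CTR replicate 4 the log2 fold change was -0.10. Nfe2l2, the gene of NRF2, ranged from 52.5 to 65.5 CPM in CTR and from 52.1 to 76.4 CPM in CAC (log2 fold change 0.16, 95% interval -0.11 to 0.43, and 0.06 without CAC replicate 4). Keap1, its inhibitor, ranged from 91.1 to 108 CPM and from 82.2 to 101 CPM (log2 fold change -0.08, 95% interval -0.30 to 0.15, with -0.12 without CTR replicate 2, -0.04 without CTR replicate 1 and -0.01 without CAC replicate 1). Levels of transcripts do not show the release of NRF2 from KEAP1, which takes place on the protein.

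NRF2 targets and mitochondrial antioxidant genes were then set side by side. The 14 NRF2 targets were Nqo1, Gclc, Gclm, Gsr, Srxn1, Txnrd1, Txn1, Prdx1, Slc7a11, Gsta3, Gsta4, Gstm1, Gstm2 and Gstp1, of which 11 were tested. By sign 4 were higher and 7 lower, 0 passed the test, and the median log2 fold change was -0.05. Over the alternatives in processing 6 to 10 were lower and 3 to 5 higher, with medians between -0.11 and -0.01 (the latter without CAC replicate 2). A core of 7 targets, of which 4 were tested, had a median of 0.06. Over the alternatives the median of this core was -0.001 to 0.10, with 0 to 3 genes lower and 2 to 4 higher. The 8 mitochondrial antioxidant genes were Sod2, Prdx3, Prdx5, Txn2, Txnrd2, Glrx2, Glrx5 and Gstk1, and all were tested. Txn2 was higher and the other 7 lower by sign, 0 passed the test, and the median was -0.16 (-0.19 to -0.11 over the alternatives, with 6 or 7 genes lower). A wider list of 13, of which 11 were tested, had a median of -0.12. The median over all genes tested was 0.00, and the lists were described without a test.

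The lists were also read by library. The mean deviation of the mitochondrial genes from their CTR means was -0.04, -0.05, 0.04 and 0.05 (log2 of CPM + 0.5) in CTR replicates 1 to 4, and -0.09, -0.09, -0.22 and -0.14 in CAC replicates 1 to 4. All 4 CAC libraries lay below all 4 CTR libraries, by a group mean of -0.13. Of the 8 brown adipocyte markers 5 were higher and 3 lower by sign (median log2 fold change 0.03, and -0.05 to 0.06 over the alternatives with 3 to 5 lower). Among those of mitochondrial proteins, Cox8b and Cox7a1 were lower in every CAC library, while Ucp1 had a log2 fold change of 0.03 with overlapping groups, and their part in the result was not tested. For the NRF2 targets the mean deviation was 0.14, -0.04, 0.00 and -0.09 in CTR, and -0.14, -0.38, -0.02 and 0.00 in CAC. The groups overlapped, CAC replicate 2 had the lowest value, and the CAC mean was -0.13, as for the mitochondrial genes. Separation by library was not particular to the mitochondrial list. The glutathione transferases lay at -0.03 to 0.03 in CTR and at -0.33 to -0.05 in CAC, with a CAC mean of -0.16. This group shares Gstk1 with the mitochondrial list and Gsta3, Gsta4, Gstm1, Gstm2 and Gstp1 with the NRF2 targets, so it is not a separate set of genes.

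The difference between the lists was described and not tested. The median of the NRF2 targets was 0.11 above that of the mitochondrial genes, between 0.01 (without CAC replicate 3) and 0.12 (without CTR replicate 1) over the alternatives. By mean deviation, NRF2 targets minus mitochondrial genes gave 0.18, 0.01, -0.04 and -0.14 in CTR and -0.05, -0.28, 0.20 and 0.14 in CAC. The means of the groups were 0.00 ± 0.13 and 0.00 ± 0.22 (SD, n = 4 each). The offset between the lists was thus present in their medians and not in their means.

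**Figure D3:**
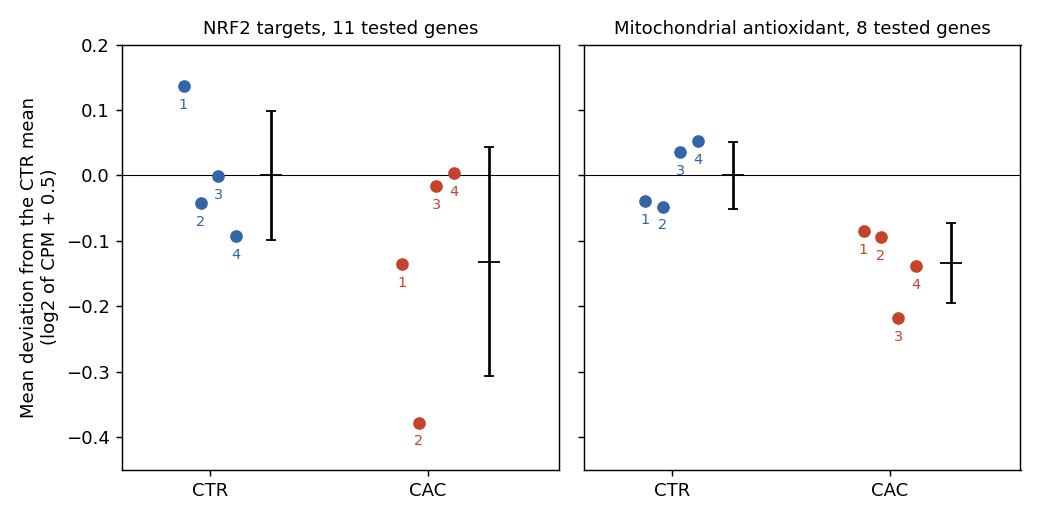
Mean deviation of the tested NRF2 targets (left, 11 genes) and mitochondrial antioxidant genes (right, 8 genes) from their CTR means in each library, in log2 of CPM + 0.5, with replicate numbers and the mean and SD of each group. The mitochondrial genes separate the groups, as do the glutathione transferases (not drawn), and the NRF2 targets overlap, with CAC replicate 2 at -0.38. The CAC mean is -0.13 for the NRF2 targets and for the mitochondrial genes.

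Position in the cell was a further division. Of the 5 genes whose proteins are secreted or reside in the endoplasmic reticulum (Sod3, Gpx3, Gpx7, Gpx8 and Prdx4), Gpx3 passed the test and the other 4 overlapped between the groups. The summed level of the 5 genes was 1094 to 1724 CPM in CTR and 1913 to 2313 CPM in CAC. That sum consists mostly of Gpx3.

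**Figure D4:**
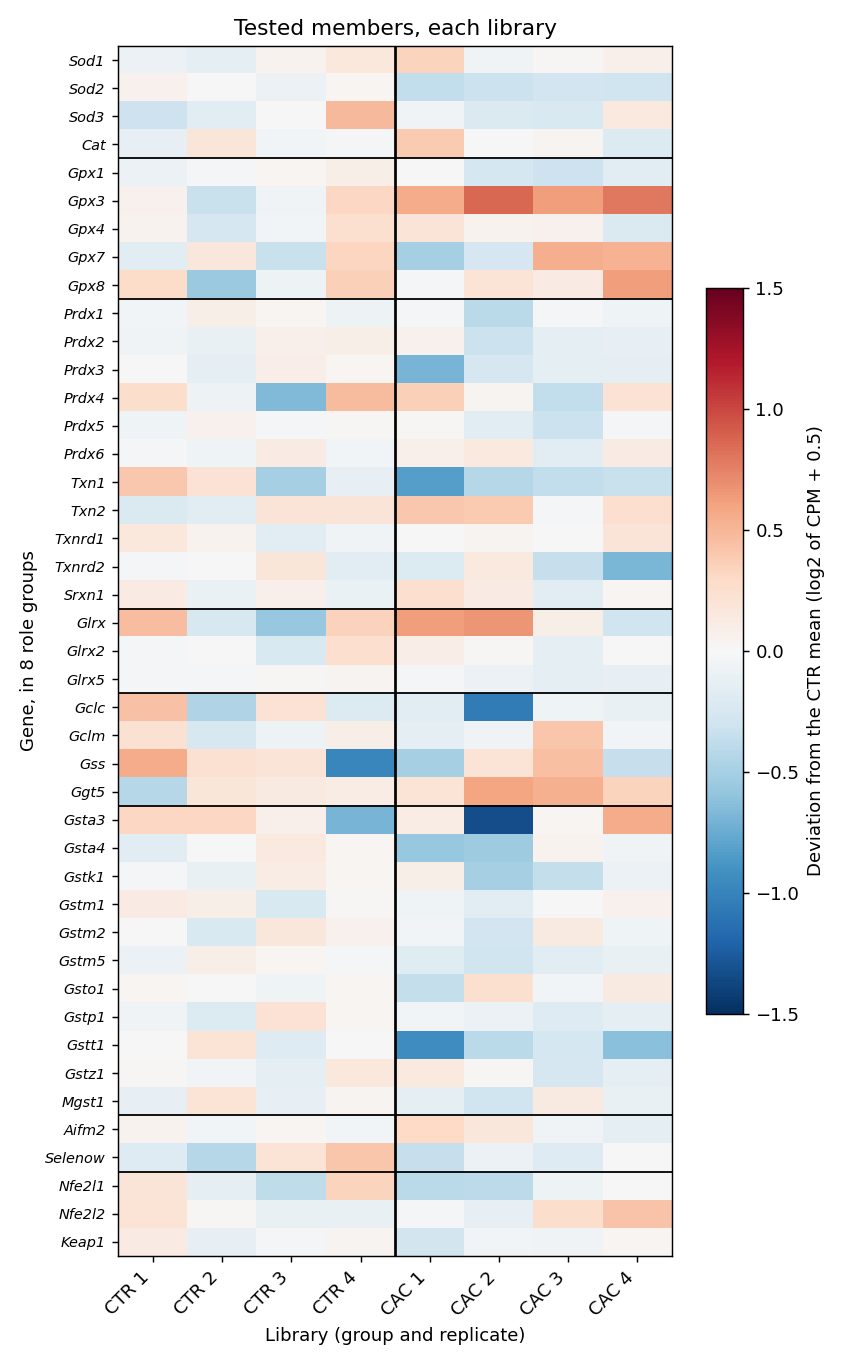
Deviation of each tested gene from its CTR mean (log2 of CPM + 0.5, colour) in the 8 libraries, with genes in rows by role group and a vertical line between CTR and CAC. The Gpx3 row is above the CTR mean in all 4 CAC libraries and the Sod2 row below it, while most other rows mix both signs.

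Related genes outside the 47 were read from 3 lists. Of 22 other NRF2 targets 17 were tested, with 9 higher, 8 lower, 0 past the test and a median (log2 fold change) of 0.00 (-0.07 to 0.07 over the alternatives). The smallest p in this list belonged to Fth1, the heavy chain of the iron store ferritin, at 1266 to 1401 CPM in CTR and 833 to 1215 CPM in CAC (log2 fold change -0.34, edgeR adjusted p = 0.132). It was followed by Taldo1, a transaldolase of the pentose phosphate pathway, at 731 to 791 CPM and 610 to 713 CPM (log2 fold change -0.19, edgeR adjusted p = 0.363). For both genes the groups did not overlap.

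Of 42 other glutathione and redox genes 27 were tested, with 14 higher, 13 lower, 0 past the test and a median of 0.01 (-0.03 to 0.08 over the alternatives). Slc3a2, the heavy chain that pairs with Slc7a11, ranged from 48.9 to 65.7 CPM in CTR and from 57.8 to 85.1 CPM in CAC (log2 fold change 0.42, edgeR adjusted p = 0.147). Msrb1, a selenoprotein that repairs oxidised methionine, ranged from 95.6 to 120 CPM and from 116 to 169 CPM (log2 fold change 0.34, edgeR adjusted p = 0.210). In each of these genes 3 CAC libraries lay above all of CTR. Of 9 genes of mitochondrial redox support 8 were tested, with 4 higher, 4 lower, 0 past the test and a median of -0.06. Over the alternatives this median was -0.10 to 0.05, with 3 to 6 genes lower, so its sign turned. Sirt3, the deacetylase that activates SOD2, averaged 22.4 ± 4.37 CPM in CTR and 19.2 ± 4.16 CPM in CAC, and Slc25a11, a carrier of the inner membrane, averaged 76.6 ± 4.76 and 69.1 ± 5.84 CPM.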

How the data were processed

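RNA from the BAT of 8 mice, 4 CTR and 4 CAC, was sequenced as 1 library each, and groups were taken from the labels. Per the submitters' processing notes, reads were checked with FastQC 0.11.9, aligned with HISAT2 2.2.1 to mm10 and counted with featureCounts. The authors deposited expected counts per Ensembl gene, which hold fractions of reads because reads with several matches were counted, and these were rounded to whole reads. They also deposited a signal, the counts without their decimals divided by 1 DESeq2 size factor per library, which was used in 1 alternative only.

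Genes were kept by filterByExpr, scaled by TMM and compared by the quasi-likelihood method (robust) of edgeR 4.0.16 (R 4.3.3), CAC against CTR with no covariate, with Benjamini-Hochberg adjustment over 9876 genes and a threshold of 0.05. The procedure was tested on simulated data. Totals of 1823167 to 4827956 counts per library set the precision. Intervals of fold changes are 95% intervals from the fit.

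The genes and lists were chosen with earlier results of these data known, so lists were described by counts and medians without a test. Library values are given for genes with an unadjusted p under 0.05 and for the smallest p of each role group, and other genes by ranges or means. Related genes are the 2 with the smallest p of each list. Gstm5, Prdx3, Gpx1, Nfe2l2 and Keap1 were described in more detail after their values were seen. The main analysis was repeated with DESeq2 1.42.0, with limma-trend (limma 3.58.1) applied to log2 of the signal plus 1, with scaling by library size or by upper quartiles, without mitochondrially encoded genes, without the low-count filter, with a minimum of 10 counts per library, with a block for the replicate number, with decimals cut off, with each library left out, at thresholds of 0.01 and 0.1, and with a core and a wider list. Leaving out erythrocyte and muscle markers, which changes the scaling only, was chosen after seeing the data. Coordinates are those of GENCODE M21 (GRCm38), matched by Ensembl ID without version for all 47 genes, and promoter windows are from RefSeq. Tables were made with Python 3.11.15, pandas 2.3.3 and matplotlib 3.10.9.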

Additional observations from a re-analysis of the deposited data

Results flagged for a closer look

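In the groups of 4 libraries, a library was marked where its gap to the nearest other library was too large a part of the range of its group by Dixon's test at the 95% level. This marked 6 of 112 groups of values examined, and chance marks about 1 in 20. CAC replicate 2 was low for Prdx1 (257 CPM, the others 326 to 337 CPM) and for Gclc (2.13 CPM, the others 4.33 to 4.69 CPM). CAC replicate 4 was high for Txnrd1 (30.3 CPM, the others 26.5 to 27.1 CPM), and CAC replicate 3 was high for Gclm (28.7 CPM, the others 19.5 to 20.9 CPM). CTR replicate 1 was low for Ggt5 (5.76 CPM, the others 8.60 to 9.06 CPM). It was also the library with the single Slc7a11 read (0.360 CPM, the others at 0). With 1 read in 1 library and 0 in the others, Slc7a11 is marked by construction.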

How the results depend on the processing

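Gpx3 passed the test in all 18 alternative analyses, with log2 fold changes of 0.59 to 0.82 and adjusted p-values of 8.9e-10 to 0.0180. Across all genes, 92 were called by edgeR, 351 with no filter on low counts, 30 at a threshold of 0.01 and 183 at 0.1. Leaving out each library in turn gave 42 (without CTR replicate 1) to 135 (without CTR replicate 3), and 60 without CAC replicate 3. Of the antioxidant and glutathione genes 1 was called, and 2 with no filter, 2 at a threshold of 0.1 and 1 to 2 when each library was left out, the higher number without CTR replicate 3. The second gene was Txn1 with no filter (adjusted p = 0.0255) and without CTR replicate 3 (adjusted p = 0.0493), and Sod2 at the threshold of 0.1. With the replicate number as a block, 140 genes were called, Gpx3 was the gene called among the 47, and the adjusted p of Sod2 was 0.144. The labels do not say whether the replicate numbers pair the mice. Deviations of libraries with the same number correlated at 0.09, -0.08, 0.09 and -0.07, and 1 of 4 numbers correlated best with its own. So few libraries cannot exclude a pairing or a shared batch. The medians of the NRF2 targets and mitochondrial genes and their difference moved by less than 1 SD of the libraries' mean deviations in every alternative run. This is a yardstick and not a test. For the NRF2 targets and for the difference the SD was 0.14 and 0.18, wider than the values of -0.05 and 0.11 themselves. A change of sign could thus count as unmoved, as it did for the core list of NRF2 targets (median 0.06). Depth limited Nqo1, Slc7a11, Gsr and Mgst3, which had too few counts for the filter of the main analysis. With no filter their adjusted p-values were 0.682, 0.699, 0.958 and 0.205.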
